A study of Homo sapiens with 6 samples.

Results

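The transcription factor NRF2, encoded by NFE2L2, its inhibitor KEAP1 and a panel of 7 antioxidant and metabolic genes were examined in cells labelled HCT116, a human colorectal carcinoma line. The 9 genes were chosen by name, with earlier results of these data known (NFE2L2, KEAP1, SRXN1, TXNRD1, GCLC, GCLM, TKT, NQO1 and HMOX1). All probe sets that the platform annotation gives to one of them alone were taken. This gave 21 of the 44988 probe sets with a single gene, and 9 of 18132 genes. Total RNA of 6 samples was labelled with biotin and read on Affymetrix arrays. The 3 Ctrl arrays hold cells given the control treatment and the 3 CSF3 arrays hold cells labelled CSF3, the name of the cytokine G-CSF and of its gene. Both groups were grown in RPMI-1640 with serum and antibiotics. The labels say neither how CSF3 was supplied, nor for how long, nor whether the arrays of a group came from separate cultures or clones, so the p-values cover only the spread among these samples, and that spread may be technical. The series title concerns autophagy and NF-κB, and the comparison here asks how the NRF2 genes differed between the CSF3 and Ctrl arrays.

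NRF2 is held in the cytoplasm by KEAP1, which presents it to a CUL3 ubiquitin ligase for degradation. Electrophiles and oxidants modify KEAP1, and NRF2 then accumulates, pairs with small MAF proteins and binds antioxidant response elements near its target genes. The targets make glutathione, recycle thioredoxin, supply NADPH, reduce quinones and break down heme, and the pathway is active in many carcinomas.

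The core of the antioxidant response element, TGACNNNGC, was looked for on both strands of the 250 bases before each annotated start site, in promoters taken from RefSeq (GRCh38.p14). The table held 11 promoters of 8 members, and HMOX1 was not matched. Of these, 4 promoters, of 3 genes, held the core (36.4% of promoters), as did 10.9% of all 35116 promoters. By gene, 37.5% of the matched members and 14.9% of 14425 measured genes with a promoter held it at any start site. None of the 5 member matches held TGACTCA, the AP-1 motif that can overlap this core. A match is not a binding site, and its absence from this window says nothing of sites elsewhere. No core lay in this window for SRXN1, GCLC and TKT, whose brightest probe sets fell under every alternative run described below. None lay there for NFE2L2 and NQO1 either. The promoters of GCLM and TXNRD1, 2 of the 3 genes that hold the core, are shown as examples of target genes. Their brightest probe sets fell as deposited but were not called after quantile normalization. The core is in capitals (on the reverse strand in GCLM and at the downstream TXNRD1 start). They lie at chr1:93909431-93909680 (minus strand), chr12:104215529-104215778 and chr12:104286782-104287031 (both plus strand). The first match begins 34 bases before the GCLM start, and the others 99 and 102 bases before the TXNRD1 starts. The remaining 2 matches lie before the downstream start of the inhibitor gene KEAP1, the third such gene, which is not printed.
GCLM: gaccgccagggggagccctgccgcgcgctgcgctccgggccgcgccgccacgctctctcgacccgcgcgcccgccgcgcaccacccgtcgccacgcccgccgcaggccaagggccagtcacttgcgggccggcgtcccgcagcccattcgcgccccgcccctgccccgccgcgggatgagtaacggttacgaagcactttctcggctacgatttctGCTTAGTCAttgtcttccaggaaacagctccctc
TXNRD1 upstream start: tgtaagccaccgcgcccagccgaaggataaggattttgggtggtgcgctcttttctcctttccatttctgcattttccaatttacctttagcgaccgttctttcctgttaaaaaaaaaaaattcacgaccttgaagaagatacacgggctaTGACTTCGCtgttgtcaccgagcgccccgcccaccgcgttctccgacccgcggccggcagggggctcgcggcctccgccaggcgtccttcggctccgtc
TXNRD1 downstream start: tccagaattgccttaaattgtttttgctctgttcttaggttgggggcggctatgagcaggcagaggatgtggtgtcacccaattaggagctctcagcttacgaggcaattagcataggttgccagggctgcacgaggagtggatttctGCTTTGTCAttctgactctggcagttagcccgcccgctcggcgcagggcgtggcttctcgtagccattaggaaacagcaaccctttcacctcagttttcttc

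Values are log2 signals as deposited, which run from 0.81 to 12.7 over the arrays. Folds take the base to be 2, which the sources used here do not state. Several measures of the arrays themselves moved with the groups. The median hybridisation control read 6.82 ± 0.07 without CSF3 and 8.36 ± 0.05 with it, and the 3' to 5' gap of GAPDH was 0.306 ± 0.007 and 0.682 ± 0.003 (SD, n = 3 each, exact two-sided permutation p = 0.1 for both, the smallest that 3 against 3 arrays can give). The median poly-A control read 3.58 ± 0.16 without CSF3 and 5.22 ± 0.12 with it. For ACTB the 3' to 5' gap was 1.34 ± 0.03 and 1.94 ± 0.02 (SD, exact two-sided permutation p = 0.1 for both). The median change was 0.23 in the dimmer part of all probe sets, split at the median signal, and -0.16 in the brighter part, which holds 19 of the 21 member probe sets. After quantile normalization these medians were 0.048 and 0.032. The CSF3 gene itself rose from 4.83 ± 0.30 to 5.96 ± 0.04 (limma adjusted p = 0.00034).

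Markers of the labelled cell type were only partly bright. KRT18 read 7.26 ± 0.01 and KRT8 6.37 ± 0.05 on the Ctrl arrays, whereas EPCAM read 3.63 ± 0.05, KRT19 2.61 ± 0.12, CDH17 2.61 ± 0.10, CDH1 2.20 ± 0.09 and VIL1 1.43 ± 0.19 on their brightest probe sets, against a median of 1.42 ± 0.01 for probe sets made to read background. VIM and ZEB1 are mesenchymal genes looked at after the values were seen. They read 8.38 ± 0.04 and 8.90 ± 0.03 on the Ctrl arrays and 7.47 ± 0.02 and 7.73 ± 0.04 on the CSF3 arrays. The signals of EPCAM and CDH1, usually strong in this line, thus go against the label on the arrays of both groups, and the cells are called by their label only. Of the epithelial list 3 genes rose and 2 of 7 fell. The summed log2 signal was 25.9 to 26.4 on Ctrl arrays and 26.0 to 27.1 on CSF3 arrays. These sums hold opposite changes. KRT8 read 5.06 ± 0.17 on the CSF3 arrays (change -1.32, limma adjusted p = 2.6e-05), and EPCAM fell too (-0.33). CDH17 read 3.66 ± 0.22 there (change 1.05, limma adjusted p = 0.00017), and KRT19 and KRT18 rose by 0.47 and 0.22. Markers of other cell types were dim, with group means of at most 4.65. The summed signal of the fibroblast genes was 10.5 to 10.6 on Ctrl arrays and 13.1 to 13.4 on CSF3 arrays (4 of 5 genes rose), that of the leukocyte genes 12.5 to 12.8 and 13.7 to 14.5 (2 of 5), and that of the endothelial genes 9.38 to 9.67 and 11.1 to 11.3 (3 of 3). Of all genes, 44.1% rose and 26.5% fell on their brightest probe sets. The sums use signals as deposited, in which the dimmer part of all probe sets had a median change of 0.23. The part of these measures in the results below was not tested. In bulk RNA, fewer cells of a type and less RNA per cell cannot be told apart.

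The NRF2 genes read mostly lower on the CSF3 arrays. Of the 21 member probe sets, 16 were called lower, 1 was called higher and 4 were not called (limma, Benjamini-Hochberg adjusted p under 0.05 over all probe sets), where 28.8% of all probe sets fell and 36.7% rose. The median change of the members was -0.37, and that of all probe sets 0.10. On their brightest probe sets 7 of the 9 genes fell and 0 rose (0 also at an unadjusted p under 0.05), where 26.5% of all genes fell and 44.1% rose. Without Ctrl replicate 1 the genes that fell numbered 4. In that fit 11663 of all 44988 probe sets were called lower, which is a count of probe sets and not the matching count of genes. After quantile normalization, which removes most of the tilt between dim and bright probe sets, 10 member probe sets fell and 2 rose (all probe sets: 24.8% fell, 28.5% rose), with a median of -0.20. On the brightest probe sets 3 genes then fell and 1 rose (all genes: 19.0% fell, 38.6% rose). The groups did not overlap for any member probe set: 19 were lower on every CSF3 array than on every Ctrl array and 2 were higher, as were 30.9% and 39.8% of all probe sets. Because the members were chosen with earlier results of these data known, setting them beside these shares is a description and not a test.

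**Figure D1:**
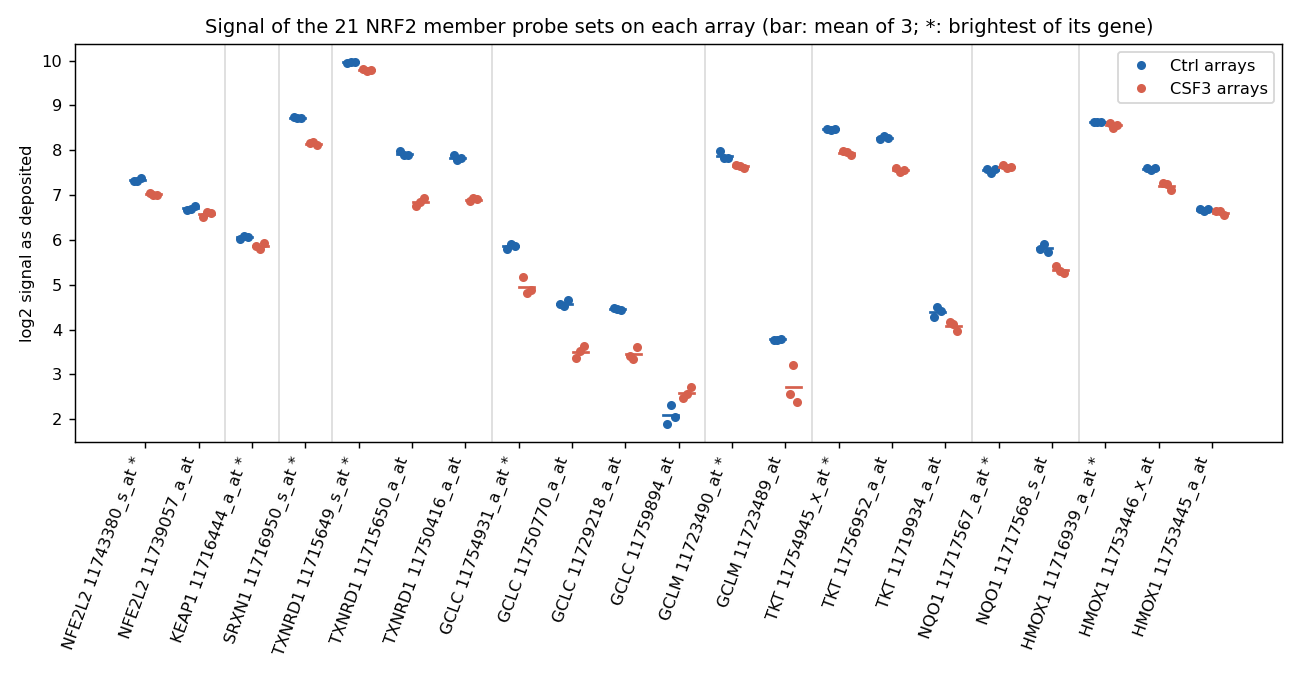
Log2 signal as deposited (y axis) of each member probe set (x axis, brightest of its gene marked with a star) on the 3 Ctrl arrays (blue) and the 3 CSF3 arrays (red), with the mean of each group as a bar. For 19 of the 21 probe sets the red points lie below the blue ones. Group means differ most at the 3 brighter GCLC, the dimmer GCLM and the dimmer TXNRD1 probe sets.

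**Figure D2:**
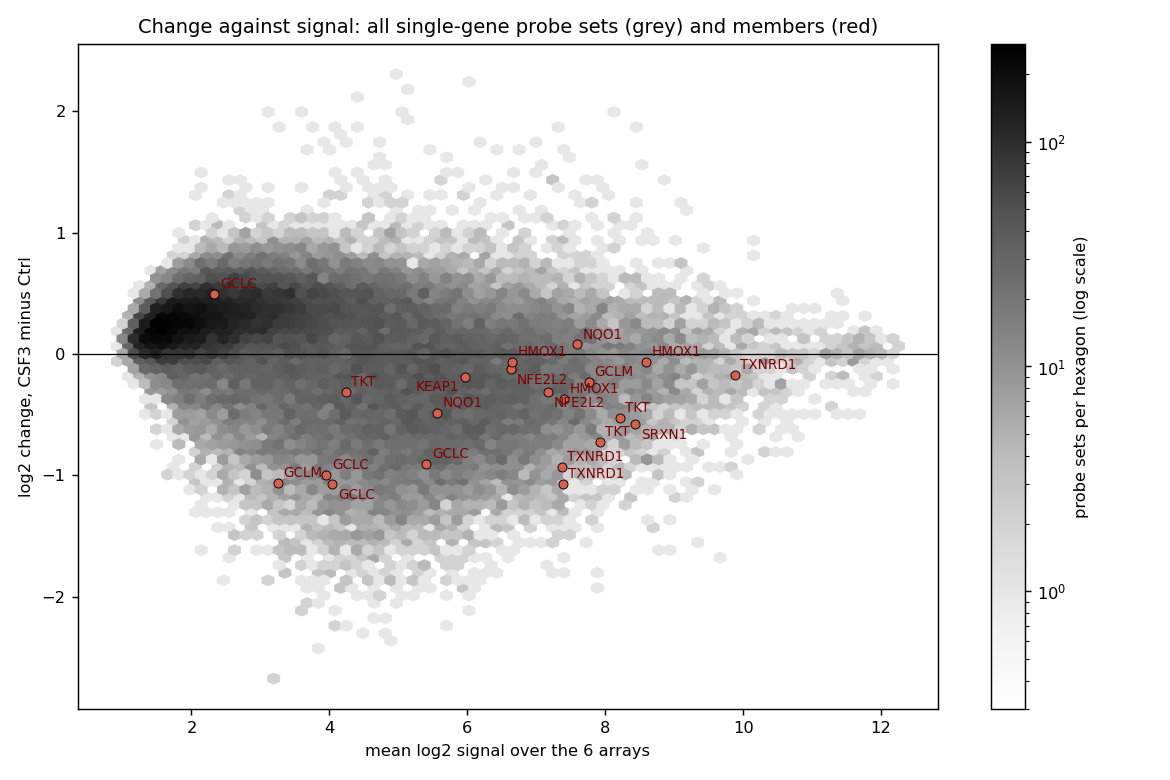
Log2 change, CSF3 minus Ctrl (y axis), against the mean log2 signal over the 6 arrays (x axis) for 44988 probe sets (grey, darker where denser, log scale) and the 21 members (red). The grey cloud lies above 0 at low signals and mostly below it in the middle, and 19 members lie below 0.

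SRXN1 and TXNRD1 stand for the thioredoxin arm. SRXN1, sulfiredoxin, repairs over-oxidised peroxiredoxins. Its single probe set read 8.75, 8.73 and 8.71 on the Ctrl arrays and 8.15, 8.18 and 8.12 on the CSF3 arrays. The groups were 0.53 apart at their nearest arrays, and the signal was 1.5-fold lower on the CSF3 arrays (log2 change -0.58 ± 0.05 SE, limma adjusted p = 9.5e-05). The fall kept its call after quantile normalization (-0.43, limma adjusted p = 0.000535).

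TXNRD1, cytosolic thioredoxin reductase, passes electrons from NADPH to thioredoxin. Its 3 probe sets all fell, but by unlike amounts. The brightest read 9.95, 9.97 and 9.97 on the Ctrl arrays and 9.81, 9.78 and 9.79 on the CSF3 arrays, a change of -0.17 ± 0.05 (limma adjusted p = 0.0231). This small fall was no longer called after quantile normalization (-0.068, limma adjusted p = 0.291), nor without any one of the Ctrl arrays (limma adjusted p up to 0.0748). A second probe set read 7.97, 7.89 and 7.89 on the Ctrl arrays and 6.76, 6.84 and 6.92 on the CSF3 arrays. That is a 2.11-fold lower signal (-1.07 ± 0.07, limma adjusted p = 1.8e-05). The remaining one read 7.90, 7.78 and 7.83 against 6.86, 6.93 and 6.91, with a change of -0.93 ± 0.06 (limma adjusted p = 2.1e-05). Both of these falls kept their call after quantile normalization, at -0.86 and -0.72. The changes of the TXNRD1 probe sets spanned 0.90 on the log2 scale, where the median span of 3173 genes with 3 probe sets was 0.42. The platform annotation used here does not say which transcripts each probe set reads.

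GCLC and GCLM encode the catalytic and the modifier subunit of glutamate-cysteine ligase, the rate-limiting enzyme of glutathione synthesis. GCLC fell on 3 of its 4 probe sets. The brightest read 5.80, 5.91 and 5.87 on the Ctrl arrays and 5.16, 4.81 and 4.89 on the CSF3 arrays, a 1.87-fold lower signal (-0.91 ± 0.10, limma adjusted p = 0.000175). The next read 4.56, 4.51 and 4.66 against 3.35, 3.53 and 3.64, with a change of -1.07 ± 0.09 (limma adjusted p = 4.8e-05). The third read 4.48, 4.46 and 4.44 against 3.41, 3.35 and 3.61, with a change of -1.0 ± 0.08 (limma adjusted p = 4.3e-05). All 3 kept their call after quantile normalization, with changes from -1.02 to -0.67. The dimmest probe set went the other way. It read 1.89, 2.32 and 2.05 on the Ctrl arrays and 2.48, 2.55 and 2.71 on the CSF3 arrays, a rise of 0.49 ± 0.12 (limma adjusted p = 0.00755) that was not called after quantile normalization (0.27, limma adjusted p = 0.0849). Its signal lies close to the median of the background probe sets (1.42 on Ctrl and 1.44 on CSF3 arrays), of which the highest read 9.43 and 9.77. No detection calls were used.

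GCLM fell on both probe sets, by very different amounts. The brighter one read 7.99, 7.82 and 7.82 on the Ctrl arrays and 7.67, 7.64 and 7.61 on the CSF3 arrays, with a change of -0.23 ± 0.07 (limma adjusted p = 0.0172). Ctrl replicate 1 is the highest of these arrays, and without it the change was -0.18 and not called (limma adjusted p = 0.0631). Quantile normalization left a change of -0.044 (limma adjusted p = 0.603). The dimmer one read 3.77, 3.77 and 3.80 on the Ctrl arrays and 2.56, 3.21 and 2.39 on the CSF3 arrays. These CSF3 signals are about as low as those of the dimmest GCLC probe set, so the same limit holds for them. CSF3 replicate 2 lies between the Ctrl arrays and the other CSF3 arrays, so the error is large: the change was -1.06 ± 0.19 (limma adjusted p = 0.00196), and -1.15 after quantile normalization (limma adjusted p = 0.00226). The span of 0.83 between the GCLM probe sets exceeds that of 92.6% of genes with 2 probe sets or equals it, and the same share for the span of 1.57 in GCLC, among genes with 4, is 96.4%.

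TKT, transketolase, works in the non-oxidative part of the pentose phosphate pathway, beside the branch that makes NADPH. All 3 of its probe sets fell. The brightest read 8.48, 8.46 and 8.47 on the Ctrl arrays and 7.98, 7.96 and 7.89 on the CSF3 arrays, a 1.44-fold lower signal (-0.53 ± 0.06, limma adjusted p = 0.000169). The next read 8.26, 8.32 and 8.26 against 7.60, 7.52 and 7.55, which is 1.65-fold lower (-0.72 ± 0.06, limma adjusted p = 4.3e-05). Both stayed called after quantile normalization, at -0.36 and -0.54. The dimmest read 4.27, 4.49 and 4.41 against 4.17, 4.11 and 3.96, with a smaller change of -0.31 ± 0.09 (limma adjusted p = 0.0136). That call was lost after quantile normalization (-0.20, limma adjusted p = 0.0845) and without Ctrl replicate 2 (-0.26, limma adjusted p = 0.0538).

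The regulators themselves had small changes. The brightest NFE2L2 probe set read 7.31, 7.32 and 7.38 on the Ctrl arrays and 7.05, 7.003 and 7.003 on the CSF3 arrays, a 1.24-fold lower signal (-0.32 ± 0.06, limma adjusted p = 0.00192). After quantile normalization the change was -0.095 and not called (limma adjusted p = 0.174). Its other probe set read 6.67, 6.68 and 6.76 against 6.51, 6.62 and 6.60, a change of -0.13 ± 0.06 that was not called (limma adjusted p = 0.107) and became 0.12 after quantile normalization. KEAP1 read 6.01, 6.08 and 6.07 on the Ctrl arrays and 5.87, 5.80 and 5.94 on the CSF3 arrays. Its change of -0.19 ± 0.06 (limma adjusted p = 0.0304) turned to 0.079 after quantile normalization (limma adjusted p = 0.307). The KEAP1 call was also lost when any array but CSF3 replicate 3 was left out (limma adjusted p up to 0.0949). Neither regulator therefore has a direction that is the same under each normalization for all its probe sets, and RNA levels do not measure the NRF2 protein, which is controlled by degradation. The 3 genes whose brightest probe sets followed that of NFE2L2 most closely were CDC42SE2, SRSF2 and EIF3L, with root mean square differences of 0.0077, 0.011 and 0.012 over the 6 arrays once each gene's own mean was subtracted. Their changes were -0.32, -0.30 and -0.32 on the log2 scale, and as the arrays form 2 groups this likeness mostly restates the change between them.

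NQO1 and HMOX1 are widely used reporters of NRF2 activity. The probe sets of NQO1 differed in sign as deposited, while those of HMOX1 were all below 0 as deposited and differed in sign after quantile normalization. NQO1 reduces quinones with NADPH or NADH. Its brightest probe set read 7.58, 7.49 and 7.58 on the Ctrl arrays and 7.67, 7.61 and 7.62 on the CSF3 arrays. The groups were 0.026 apart, and the change of 0.079 ± 0.058 was not called (limma adjusted p = 0.255), although after quantile normalization it was 0.28 and called (limma adjusted p = 0.0045). The dimmer NQO1 probe set fell, from 5.80, 5.90 and 5.73 to 5.41, 5.30 and 5.27 (-0.48 ± 0.07, limma adjusted p = 0.000764). After quantile normalization this fall was -0.23 and still called (limma adjusted p = 0.0238). With both probe sets averaged the change of NQO1 was -0.20 ± 0.05 (limma adjusted p = 0.00497), so its sign depends on the probe set.

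HMOX1, heme oxygenase 1, opens heme to biliverdin, iron and carbon monoxide. Its brightest probe set read 8.63, 8.62 and 8.63 on the Ctrl arrays and 8.62, 8.50 and 8.56 on the CSF3 arrays, a change of -0.068 ± 0.058 (limma adjusted p = 0.325). The dimmest read 6.69, 6.65 and 6.68 against 6.63, 6.65 and 6.55 and also was not called (-0.066 ± 0.058, limma adjusted p = 0.337). Only the second brightest, whose name ends in _x_at, fell, from 7.61, 7.55 and 7.60 to 7.27, 7.25 and 7.11 (-0.37 ± 0.06, limma adjusted p = 0.00175), and quantile normalization ended that call (-0.16, limma adjusted p = 0.0556). Quantile normalization gave 0.077 for the brightest probe set (limma adjusted p = 0.260) and a called rise of 0.18 for the dimmest (limma adjusted p = 0.0287). As deposited, the groups of these 2 probe sets were only 0.0013 and 0.0030 apart. Without CSF3 replicate 2 the change of the brightest was -0.037, and without CSF3 replicate 3 that of the dimmest was -0.034, neither of them called. The direction of HMOX1 thus depends on the normalization. Probe sets ending in _x_at or _s_at, 6 of the 21, can also read other transcripts.

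Across the panel, 10 probe sets of 6 genes fell as deposited, after quantile normalization and after cyclic loess normalization, another way to remove the tilt with signal, as did 21.6% of all probe sets (limma adjusted p under 0.05 in each). They are the SRXN1 probe set, the dimmer TXNRD1 probe sets, the 3 brighter GCLC probe sets, the dimmer GCLM probe set, the brighter TKT probe sets and the dimmer NQO1 probe set. That of GCLM was dim on the CSF3 arrays (mean 2.72). Another 6 that fell as deposited were not called after quantile normalization, among them those of NFE2L2, KEAP1 and the brightest of TXNRD1 and GCLM.

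**Figure D3:**
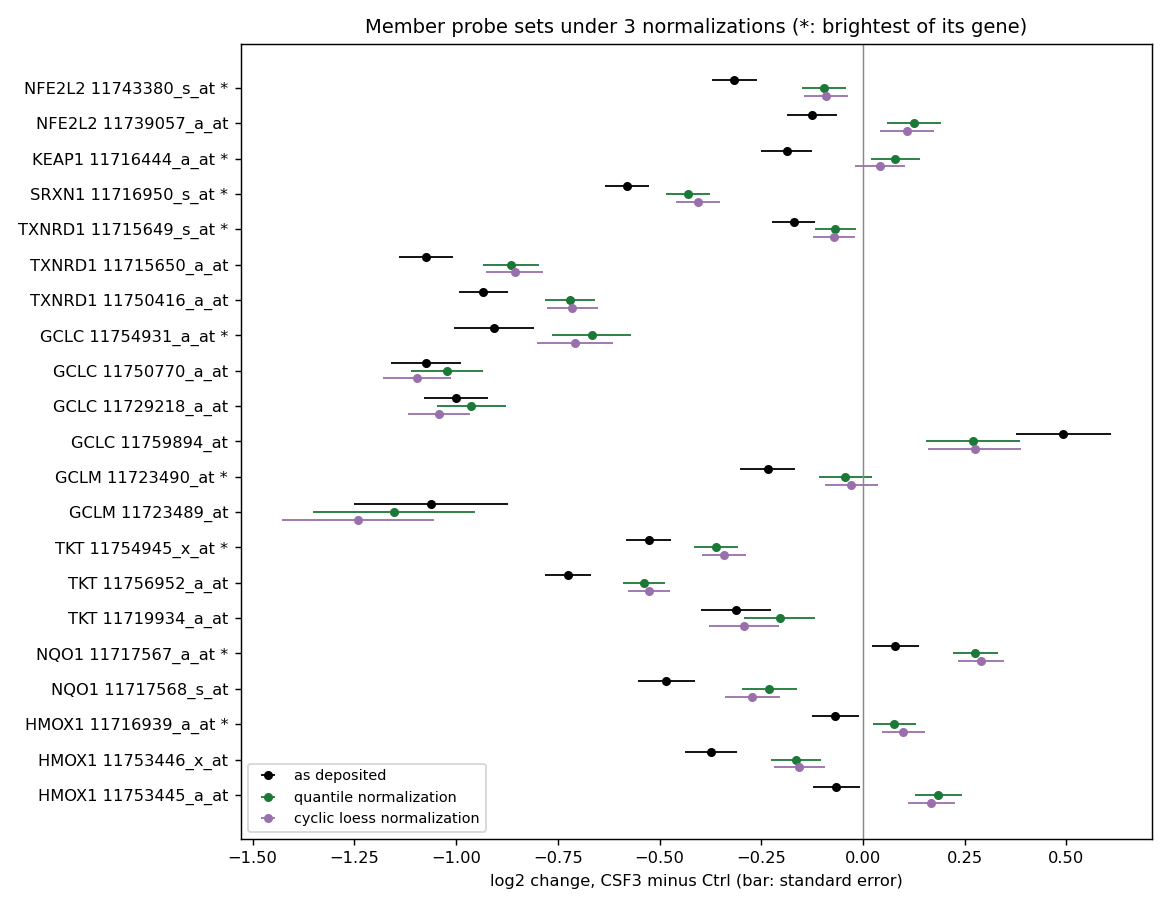
Log2 change, CSF3 minus Ctrl (x axis, bars are standard errors), of each member probe set (y axis, brightest of its gene marked with a star) as deposited (black), after quantile normalization (green) and after cyclic loess normalization (purple). SRXN1, the 3 brighter GCLC probe sets and the dimmer TXNRD1 probe sets stay well below 0 under each, while KEAP1 moves from -0.19 to 0.079 with quantile normalization.

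The wider pathway went both ways. Of 65 further genes listed by role, 59 were analysed here, and on the brightest probe set of each 17 rose, 24 fell and 18 were not called, with a median change of -0.021 against 0.16 for all genes, of which 44.1% rose and 26.5% fell. After quantile normalization 17 rose and 16 fell (all genes: 38.6% rose, 19.0% fell). After cyclic loess normalization 6496 of all 18132 genes rose and 3718 fell. The counts of each role group below are to be read against these shares, and the groups are small. Their lists too were chosen with earlier results of these data known, so the counts only describe. The NADPH group was mostly lower, with 5 of 7 genes down and 1 up and a median of -0.52 (all genes: 26.5% down, 44.1% up). After quantile normalization 4 were down and 0 up by limma (0 also at an unadjusted p under 0.05), with a median of -0.27. PGLS and PGD, of the oxidative pentose phosphate branch, fell by 0.84 ± 0.06 (limma adjusted p = 3.3e-05) and 0.58 ± 0.07 (limma adjusted p = 0.000314), and IDH1, which makes NADPH from isocitrate, fell by 0.52 ± 0.08 (limma adjusted p = 0.000987). All 3 stayed lower and called after quantile normalization.

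In the glutathione group 9 of 16 fell and 5 rose, with a median of -0.20 (all genes: 26.5% fell, 44.1% rose). Quantile normalization left 6 lower and 3 higher and moved the median to -0.051. SLC7A11, the cystine transporter that feeds glutathione synthesis, fell from 8.05 ± 0.05 to 7.11 ± 0.03 (-0.95 ± 0.06, limma adjusted p = 1.7e-05), while its 3 probe sets spanned -1.23 to 0.40. GSS, glutathione synthetase, which completes the path begun by GCLC and GCLM, fell by 0.71 ± 0.06 (limma adjusted p = 4.5e-05), and both of its probe sets were lower. GSTM3, a glutathione transferase, fell by 0.68 ± 0.06 (limma adjusted p = 5.9e-05), yet another of its probe sets had a change of 0.75 and the mean of all was 0.041, so its direction is not settled.

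In the thioredoxin group 2 of 8 genes were higher and 2 lower as deposited (all genes: 44.1% higher, 26.5% lower). After quantile normalization 4 were higher and 1 lower, and after cyclic loess 3 and 1. TXNRD2, the mitochondrial relative of TXNRD1, rose by 0.81 ± 0.06 (limma adjusted p = 3.3e-05), with changes of 0.078 to 1.18 over its 5 probe sets. TXN, thioredoxin itself, rose by 0.32 ± 0.06 (limma adjusted p = 0.00313), and the peroxiredoxin gene PRDX2 fell by 0.37 ± 0.06 (limma adjusted p = 0.00105). The reductase TXNRD1 and its substrate TXN thus had opposite signs as deposited.

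Of the partners and repressors of NRF2, 3 of 10 were higher and 3 lower as deposited (all genes: 44.1% higher, 26.5% lower). After quantile or cyclic loess normalization 5 were higher and 3 lower. MAFF, a small MAF partner, rose by 0.67 ± 0.06 (limma adjusted p = 6.9e-05). NFE2L3, a relative of NRF2, fell by 0.80 ± 0.07 (limma adjusted p = 8.4e-05). BTRC, which takes part in another route of NRF2 degradation, fell by 0.995 ± 0.09 (limma adjusted p = 8.8e-05), with its 4 probe sets from -0.995 to 0.28. SQSTM1, the autophagy receptor p62 that can sequester KEAP1, fell by 0.40 ± 0.07 (limma adjusted p = 0.00164). This was the largest fall among its 5 probe sets, which ran from -0.40 to -0.027.

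Among 12 quinone, carbonyl and detoxification genes 4 rose and 3 fell (all genes: 44.1% and 26.5%), and after quantile normalization 3 rose and 1 fell. OSGIN1, a stress-induced growth inhibitor, and CBR3, a carbonyl reductase, rose by 0.50 ± 0.08 (limma adjusted p = 0.00122) and 0.32 ± 0.06 (limma adjusted p = 0.0018), and PIR, pirin, fell by 0.44 ± 0.08 from a dim 2.84 ± 0.04 (limma adjusted p = 0.00205). Of 6 heme and iron genes 2 rose and 2 fell (all genes: 44.1% and 26.5%), and after quantile normalization 2 rose and 1 fell. FECH, which inserts iron into heme, fell by 0.67 ± 0.07 (limma adjusted p = 0.000121), with 4 probe sets from -0.97 to 0.21. The biliverdin reductases parted, with BLVRA at -0.29 ± 0.07 (limma adjusted p = 0.00624) and BLVRB at 0.14 ± 0.05 (limma adjusted p = 0.0462). The BLVRA call was lost after quantile normalization (-0.083, limma adjusted p = 0.319), and that of BLVRB without any one array (limma adjusted p up to 0.129).

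**Figure D4:**
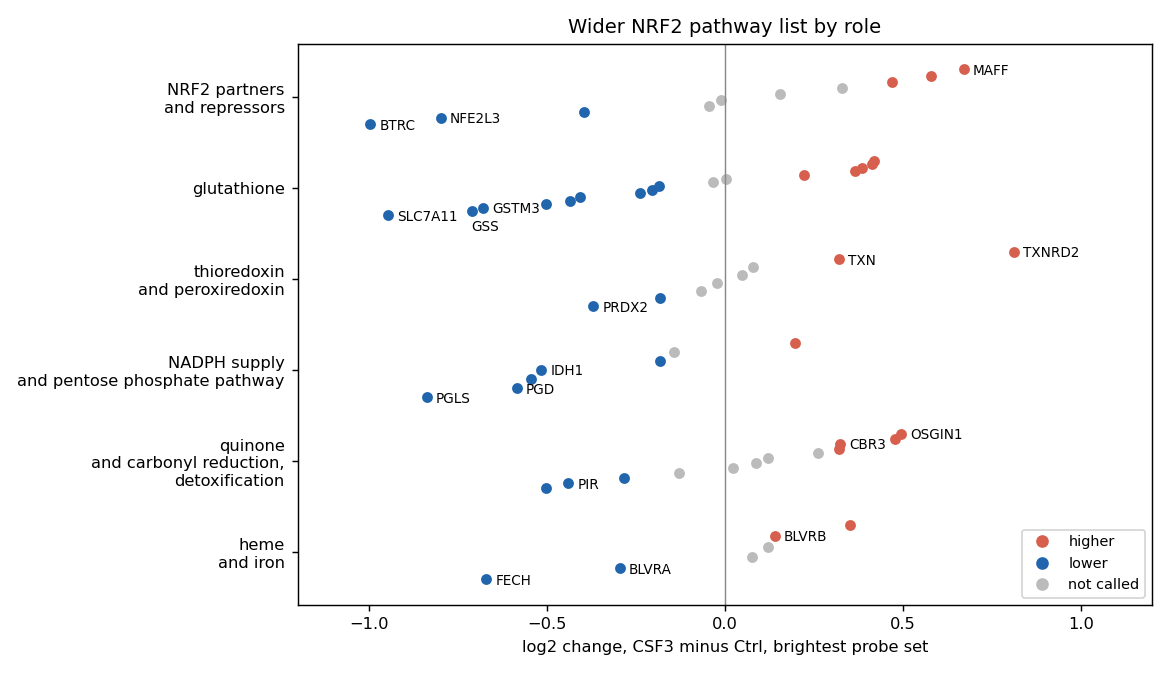
Log2 change, CSF3 minus Ctrl (x axis), of the brightest probe set of each of 59 further pathway genes, grouped by role (y axis) and coloured by call (red higher, blue lower, grey not called). In the NADPH group 5 of 7 points are blue and 1 is red, and each of the other groups holds both colours too.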

How the data were processed

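Per the labels, biotin-labelled total RNA of 3 Ctrl and 3 CSF3 samples was read on Affymetrix arrays. The authors deposited 1 log2 signal per probe set and array (log2 as far as the values show). How they corrected background, summarised probes and normalized the arrays is not given in the sources used here. Scanner files were not used here. Array means are nearly equal (4.07), while quantiles differ between the groups.

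Of 49395 probe sets, 44988 have 1 gene in the platform annotation (0 symbols changed through RefSeq), 1832 several, 2473 none and 102 are controls. CSF3 minus Ctrl was fitted on the 44988 by limma 3.58.1 (lmFit, eBayes; R 4.3.3), without covariates or filter, and p-values were adjusted over all of them by Benjamini and Hochberg's method (threshold 0.05). A gene's brightest probe set by mean over the 6 arrays gives its call. The number of arrays limits the precision. The fit was also run on simulated data with independent noise. These held neither the tilt with signal nor effects shared by an array, so the run cannot speak to those.

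The text names all members, SLC7A11, SQSTM1, the 3 genes with the smallest p in each of 6 role groups and the 3 nearest to NFE2L2. Members and lists were chosen with earlier results of these data known. Alternatives were quantile normalization, median subtraction, leaving out the dimmest 30%, other probe set summaries, trended robust variances, array weights, a replicate block and leaving out each array. Cyclic loess was added after seeing the data.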

Additional observations from a re-analysis of the deposited data

How the results depend on the processing

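SRXN1, GCLC and TKT kept their fall and their call on the brightest probe set under every alternative run. Quantile and cyclic loess normalization changed most of the others, and each left 3 member genes lower and 1 higher. Of all 18132 genes, 3449 and 3718 were then lower and 6992 and 6496 higher. NFE2L2 went to -0.095 and -0.092, GCLM to -0.044 and -0.029 and TXNRD1 to -0.068 and -0.071, none of them called. KEAP1 turned to 0.079 and 0.042 and HMOX1 to 0.077 and 0.099, also not called, and NQO1 became a called rise of 0.28 and 0.29. Of the other probe sets, the dimmer one of NFE2L2 turned to 0.12 and 0.11 and the dimmest of HMOX1 to 0.18 and 0.17. Member probe sets called lower numbered 10 with quantile normalization, and those called higher 2 with either. Of all 44988 probe sets, 11151 were lower with quantile normalization, and 12815 and 11702 were higher with quantile and cyclic loess normalization. With the mean of all probe sets NQO1 turned to -0.20, HMOX1 fell with a call (-0.17) and GSTM3 turned to 0.041. Leaving out the dimmest 30% removes the 1 member probe set called higher, that of GCLC, so 0 were called higher by limma (0 also at an unadjusted p under 0.05), and 10326 of the 31491 probe sets kept were. Deviations of same-numbered arrays from their group means correlated at 0.015 to 0.026, too weakly to pair them, although 6 of 6 arrays correlated best with their own number, a hint from the data and not the design. The replicate block left 14 member probe sets and 5 member genes lower, losing KEAP1 (-0.19) and the brightest TXNRD1 probe set (-0.17). It left 12651 of all 44988 probe sets lower. With 1 array left out, 13 to 16 member probe sets were lower and 1 higher. Of all 44988 probe sets, 11610 to 12860 were then lower and 13259 to 15989 higher. On their brightest probe sets 4 to 7 member genes were lower and 0 higher. The matching counts of all genes are not given for these fits or for the replicate block. With 1 array left out, changes ran from -0.26 to -0.18 for GCLM, -0.22 to -0.15 for KEAP1 and -0.18 to -0.16 for TXNRD1, with calls lost in part.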
